A study of Mus musculus with 8 samples.

Results

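The insulin-like growth factor (IGF) system of C2C12 myoblasts was described through 10 genes taken by name. They were the ligands *Igf1* and *Igf2*, the receptors *Igf1r* and *Igf2r*, and the binding proteins *Igfbp2*, *Igfbp3*, *Igfbp4*, *Igfbp5*, *Igfbp6* and *Igfbp7*. All 10 were found among the 27179 genes of the deposited expression table, and all 10 were among the 11406 genes that were tested. The rule that lists them uses no measured value.

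C2C12 is an immortalized mouse myoblast line that withdraws from the cell cycle and fuses into myotubes when serum is lowered. Cells were grown on dishes coated with rat tail collagen, with no genetic change or drug named in the labels of any group. Growth medium (GM) cells were in high glucose medium with 10% fetal bovine serum and were harvested at 50% confluence. Cells of the other state (3d DM) had passed 90% confluence and then spent 3 days in differentiation medium, the same base with 2% horse serum. Medium, serum species, cell density and time therefore differ together between the states and cannot be told apart. Poly(A) RNA was fragmented, a portion was sequenced as input (RNA-seq), and the rest was immunoprecipitated with an antibody to N6-methyladenosine (m6A, a methyl mark on adenosines inside mRNA) and sequenced (MeRIP-seq). There were 2 input and 2 immunoprecipitated (IP) libraries in each state, 8 in all. The labels number them as replicates without saying that they came from separate cultures, so p-values cover at most the spread between these libraries, which may be technical.

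IGF1 and IGF2 are secreted ligands that act through the tyrosine kinase IGF1R, whereas IGF2R, which also binds mannose 6-phosphate, takes IGF2 into the cell for degradation. Binding proteins hold the ligands outside the cell, and proteases that cut the binding proteins set them free. In cultured myoblasts IGFs are known to promote division as well as differentiation, and IGF2 made by the cells themselves is a known autocrine signal of differentiating myoblasts. The m6A mark is placed mostly on the A of short motifs with a central AC, often near stop codons and in 3′ untranslated regions (UTRs).

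The transcripts of 4 members, *Igf1r*, *Igf2r*, *Igfbp5* and *Igfbp7*, carried listed m6A peaks in all 4 libraries, and 6 of their 7 shared peak regions are shown here by a short sequence because the m6A results turn on them. For each region the motif match nearest the centre of the bases shared by the 4 lists is given with 10 bases on either side, read from the GRCm38 (mm10) genome on the transcript strand, 5′ to 3′, in DNA letters. Capitals mark the match. The 5 motifs searched were GGACT, its forms that end in A (GGACA) or in C (GGACC), the form that begins with A (AGACT), and the form with A at its second base (GAACT). The remaining shared region, the last one on *Igfbp5*, held none of these motifs.
Igf1r region 1, chr7:68004256-68004280, plus strand, coding sequence: ctgtgtccagGGACAttggaggaga
Igf1r region 2, chr7:68226397-68226421, plus strand, 3′ UTR: gctgatcctcGGACAcaccgaagca
Igf2r region 2, chr17:12683773-12683797, minus strand, coding sequence: gttcagacccGGACAgcgcaagcca
Igfbp5 region 1, chr1:72862143-72862167, minus strand, 3′ UTR: caagttgaacGGACAgagaagggaa
Igfbp5 region 2, chr1:72859856-72859880, minus strand, 3′ UTR: ccccaagaaaAGACTgagccaggaa
Igfbp7 region 1, chr5:77349311-77349335, minus strand, 3′ UTR: taacacatcaAGACTatctacaaaa
A match describes the letters only and is not a measured methylation site.

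Expression values are the authors' normalized values, whose column totals lay between 12534657 and 12536233 in the 4 input libraries. These equal totals are set by the normalization, and the sequencing depth is unknown. The libraries carried the state named by their labels. *Myog*, a transcription factor of differentiation, was at 1008 and 221 in GM replicates 1 and 2 and at 5392 and 11502 in 3d DM replicates 1 and 2. *Myh3* (embryonic myosin) was at 1068 and 273 against 33485 and 51674 in the same order, *Mymk* (the fusion protein myomaker) lay at 698 and 101 against 6608 and 8672, and *Ckm* (muscle creatine kinase) at 110 and 17.1 against 1740 and 1996. The proliferation marker *Mki67* was lower in 3d DM, at 446 and 760 against 3586 and 3659 in GM. GM replicate 1 was above GM replicate 2 for *Myog*, *Myh3*, *Mymk* and *Ckm*, so the replicates of GM differ in differentiation markers. Not every muscle marker was higher in 3d DM. *Myf5*, a factor of dividing myoblasts, was at 397 and 355 in GM against 58.5 and 121 in 3d DM. *Myod1*, at 1713 and 1129 against 1016 and 1645, and *Cdh15* (M-cadherin), at 4813 and 2675 against 2914 and 4990, overlapped between the states. With *Des* (desmin) these 8 myoblast and myotube markers summed to 22571 and 10717 in GM against 72439 and 104130 in 3d DM, where *Myh3* was the largest term. In contrast, 20 markers of adipocytes, osteoblasts, endothelium, blood and epithelium summed to between 35.1 and 81.6 per library, 12 of them reached a value of 1 in any library, and the highest single value was 29.6, for *Cdh1*. *Adipoq*, *Plin1*, *Fabp4*, *Ibsp*, *Kdr*, *Hbb-bs* and *Krt18* were at or near 0 in all 4 libraries. In such bulk libraries, fewer cells of a kind and less RNA per cell cannot be told apart.

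Both ligands rose from GM to 3d DM and *Igfbp2* fell. The other 7 members did not pass the test, which was limma on log2(value + 1) with an adjusted p under 0.05 over all 11406 tested genes. Thus 2 of 10 members were called higher in 3d DM and 1 of 10 higher in GM, where 7.01% and 9.96% of all tested genes were called in these directions and 17% in either. Of the 2 called higher in 3d DM, *Igf1* entered the test through its 3d DM values alone and therefore had to differ, and without it the count is 1. Both 3d DM values lay above both GM values for 5 members (*Igf1*, *Igf2*, *Igf2r*, *Igfbp4* and *Igfbp7*), against 16.8% of all tested genes, and below them for 2 members (*Igfbp2* and *Igfbp6*), against 37%. The place of *Igf1* among the 5 was likewise fixed by its entry through the 3d DM values alone. The states overlapped for *Igf1r*, *Igfbp3* and *Igfbp5*. The median log2 fold change (3d DM minus GM) of the members, *Igf1* included, was 0.44, beside -0.22 for all tested genes. That shift of all genes was 0.01 after a median-of-ratios rescaling, and changes relative to it are given for the members called. The log2 factors of this rescaling were 0.234 and 0.00221 for GM replicates 1 and 2. For 3d DM replicates 1 and 2 they were -0.365 and 0.14. Overlap between states was read on the values before rescaling and can depend on these factors. In this fit the standard error of a gene followed the trend over all genes of its level and not its own replicates, so it does not measure the spread of that gene. It was the same without either GM library. Without either 3d DM library, with no filter or after a rescaling, the gene's own replicates entered the standard error. Adjusted p-values of these 2 kinds of fit are therefore not directly comparable.

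**Figure D1:**
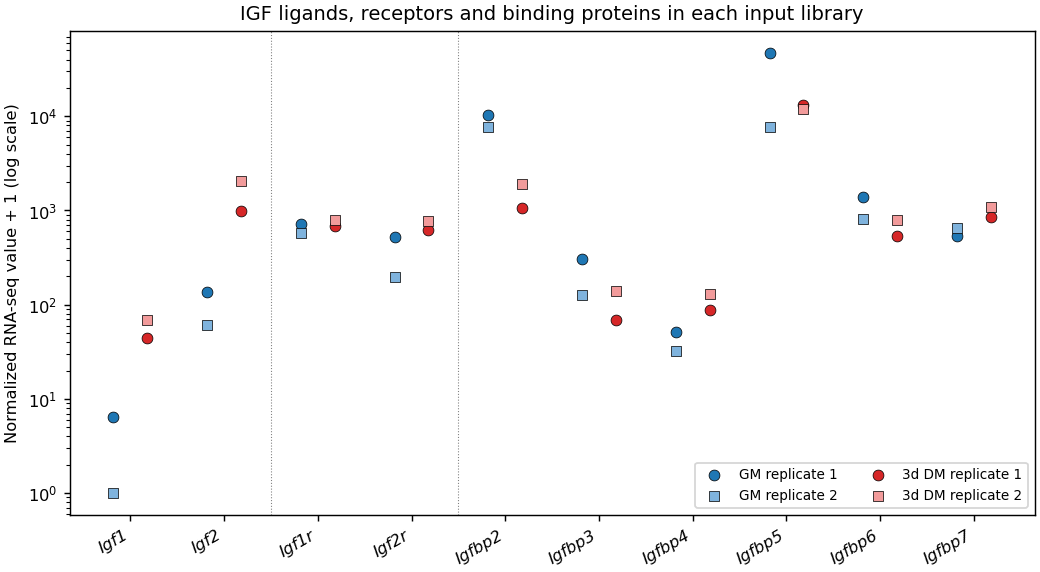
Normalized RNA-seq value plus 1 (log axis) of each IGF member in the 2 GM (blue) and 2 3d DM (red) input libraries, with circles for replicate 1 and squares for replicate 2 and dotted lines between ligands, receptors and binding proteins. *Igf1* and *Igf2* sit higher in both 3d DM libraries, *Igfbp2* sits lower in both, and the GM replicates of *Igfbp5* lie far apart at 46663 and 7702.

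Among the ligands, *Igf2* (Entrez 16002, chromosome 7, 142650768 to 142666816) had the higher level per kilobase of exon. It was at 135.9 and 60.2 in GM replicates 1 and 2 and at 982.1 and 2037 in 3d DM replicates 1 and 2. The lower 3d DM library was thus far above the higher GM library. The mean was 98.1 ± 53.5 for GM against 1510 ± 746 for 3d DM (SD, n = 2 libraries each), a ratio of 15.4. The log2 fold change was 3.95 with a standard error of 0.45 (limma, adjusted p = 2.81e-16), or 4.17 relative to all genes. It kept its direction over 12 alternative settings, between 3.37 and 4.53, with adjusted p from 2.07e-16 to 0.293, and was called in 11 of them. With either rescaling, in which the gene's own replicates enter the standard error, the smaller log2 fold change was 4.18 (limma, adjusted p = 0.00231).

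*Igf1* (Entrez 16000, chromosome 10, 87858265 to 87937047) encodes the other ligand and was the member with the lowest level per kilobase of exon. GM replicates were at 5.36 and 0.0047 and 3d DM replicates at 43.8 and 67.5. It was near the bottom of the measured range in GM and passed the filter, a value of 25.1 in at least 2 libraries, through the 3d DM libraries alone, so a gene that entered the test in this way had to differ. The means were 2.68 ± 3.79 in GM and 55.7 ± 16.7 in 3d DM (SD, n = 2 libraries each). The fitted log2 fold change of 4.45 (SE 0.76, limma, adjusted p = 1.18e-07; 4.68 relative to all genes) depends on the pseudocount, since it was 6.17 with 0.1 and 3.26 with 4. Without GM replicate 2, the library near 0, it was 3.12. Without 3d DM replicate 1 it was 4.76 and without 3d DM replicate 2 it was 4.15. The call was lost in both of these fits, in which the gene's own replicates enter the standard error. They also enter it with the median-of-ratios and trimmed-mean rescalings, where *Igf1* was called (limma, adjusted p = 0.0169 and 0.0170). Over all alternatives the adjusted p in limma ran from 1.48e-19 to 0.455.

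In both ligands GM replicate 1 was above GM replicate 2, the same order as for *Myog* and *Myh3*. The part of this difference in the result was not tested. For each ligand the difference between state means was larger than the distance between replicates. The call of *Igf2* held without any 1 of the 4 libraries.

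Neither receptor passed the test. *Igf1r* (Entrez 16001, chromosome 7, 67952257 to 68233668), the signalling receptor, was at 722.3 and 578.0 in GM replicates 1 and 2 and at 677.3 and 799.7 in 3d DM replicates 1 and 2. The states overlapped. Its log2 fold change was 0.19, with a 95% interval from -0.67 to 1.04 (limma, adjusted p = 0.86). Changes between these bounds are not excluded, and the interval rests on a standard error that does not measure the spread of this gene. Over the alternatives the log2 fold change lay between 0.03 and 0.42 and was never called.

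*Igf2r* (Entrez 16004, chromosome 17, 12682406 to 12769706), the clearing receptor, had values of 520.8 and 197.7 in GM against 618.5 and 781.3 in 3d DM, replicate 1 first. Both 3d DM libraries were above both GM libraries, and the GM replicates were farther apart than those of 3d DM. The log2 fold change of 1.11 (SE 0.45) missed the threshold (limma, adjusted p = 0.0674), and in the alternatives, from 0.42 to 1.81, the adjusted p did not go below 0.0544. *Igf2r* overlaps the antisense transcript *Airn*, an imprinted noncoding RNA, which was at 12.8 and 3.02 in GM against 14.2 and 19.99 in 3d DM. Libraries were made with a stranded kit, but whether genes were counted by strand is not stated, so reads from such partners may not have been told apart. The same holds for *Igf2* and its antisense gene *Igf2os*, at 1.06 and 0.00104 in GM against 4.55 and 16.8 in 3d DM.

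Of the 6 binding proteins, 1 fell and 5 did not pass the test, with a median log2 fold change of -0.65 beside -0.22 for all tested genes. With 9.96% of all tested genes called higher in GM, a count of 1 among 6 is near the background. *Igfbp2* (Entrez 16008, chromosome 1, 72824480 to 72852474) was the one that fell. GM libraries were at 10254 and 7666, and 3d DM libraries at 1069 and 1894. The gap between the states was larger than the distance between replicates of either state. Means were 8960 ± 1830 and 1482 ± 584 (SD, n = 2 libraries each), and GM was 6.05 times 3d DM. The log2 fold change was -2.64 (SE 0.41, limma, adjusted p = 4.38e-09; -2.42 relative to all genes), and -2.41 after the trimmed-mean rescaling (limma, adjusted p = 0.00203). It kept its sign in all 12 alternatives, between -3.05 and -2.23, and missed the threshold in 2 of them, without 3d DM replicate 1 (limma, adjusted p = 0.052) and without the filter on low values (0.291).

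*Igfbp5* (Entrez 16011, chromosome 1, 72858065 to 72874865), the neighbour of *Igfbp2* on chromosome 1 and a binding protein long known in differentiating myoblasts, depended on a single library. Libraries stood at 46663 and 7702 in GM against 13133 and 12002 in 3d DM. The 3d DM replicates were close together, while GM replicate 1 was far above them and GM replicate 2 lay below both 3d DM libraries. With all libraries the log2 fold change was -0.59 (limma, adjusted p = 0.371). It became 0.70 without GM replicate 1 (limma, adjusted p = 0.567) and -1.89 without GM replicate 2 (adjusted p = 0.000519), so no direction can be given for *Igfbp5*.

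*Igfbp4* (Entrez 16010, chromosome 11, 99040005 to 99052655), a binding protein that PAPP-A cleaves, was at 50.6 and 31.1 in GM against 87.3 and 130.4 in 3d DM. The states did not overlap. The log2 fold change was 1.40 (SE 0.55) with an adjusted p of 0.0571 in limma, just short of the threshold. It passed in 3 alternatives, without the intensity trend (limma, adjusted p = 0.0191) and with the rescalings (0.016 and 0.0161). *Igfbp7* (Entrez 29817, chromosome 5, 77349240 to 77408045), which binds IGFs weakly, had values of 540.2 and 655.3 in GM against 846.6 and 1099 in 3d DM. These did not overlap either, and the log2 fold change of 0.70 (limma, adjusted p = 0.321) became 0.93 with median-of-ratios rescaling (adjusted p = 0.0329).

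*Igfbp6* (Entrez 16012, chromosome 15, 102144186 to 102149512), which prefers IGF2, was at 1401 and 803.8 in GM against 530.5 and 790.5 in 3d DM. Its second replicates nearly met, and the log2 fold change of -0.71 did not pass (limma, adjusted p = 0.303). *Igfbp3* (Entrez 16009, chromosome 11, 7206086 to 7215498), the main carrier of IGFs in serum, was at 306.3 and 126.5 in GM against 67.4 and 139.0 in 3d DM. The states overlapped through the second replicates, and the log2 fold change was -1.02 (limma, adjusted p = 0.161).

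**Figure D2:**
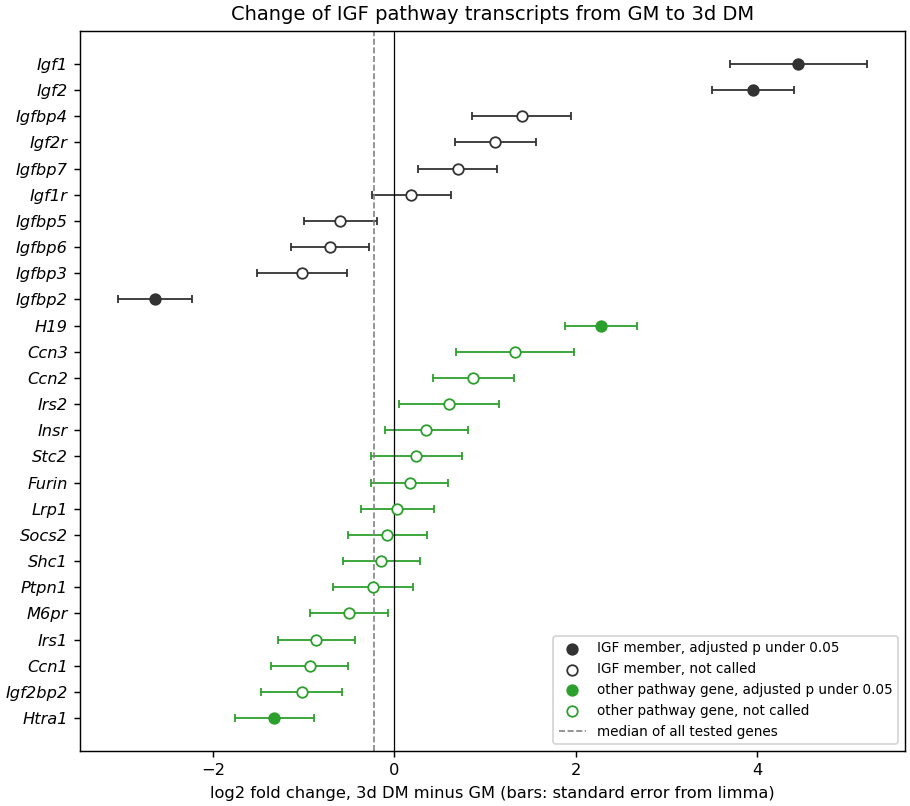
Log2 fold change (3d DM minus GM, on log2(value + 1)) with standard errors from limma for the 10 IGF members (black) and the 16 tested genes of the wider pathway list (green), filled where the adjusted p was under 0.05. Filled points are *Igf1* and *Igf2* on the right, *Igfbp2* on the left, *H19* on the right and *Htra1* on the left, and the dashed line at -0.22 is the median of all tested genes.

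For an order of levels, values were divided by the length of the annotated exons in kilobases (kb). On this scale, as mean normalized value per kb, *Igfbp2* led in GM at 4851, followed by *Igfbp5* at 4526, *Igfbp6* at 991.2 and *Igfbp7* at 494.4. *Igfbp3* followed at 69.1, with *Igf1r* at 38.7 and *Igf2r* at 38.6. The lowest levels per kb in GM were those of *Igf2* at 17.1, *Igfbp4* at 9.25 and *Igf1* at 0.271. In that order the libraries of *Igfbp2* and *Igfbp5* overlapped, as did those of *Igfbp3*, *Igf1r* and *Igf2r* and those of *Igf2* with *Igf2r* and *Igfbp4*, whereas *Igfbp6*, *Igfbp7* and *Igf1* were apart from their neighbours. In 3d DM the order by mean value per kb was *Igfbp5* at 2092, *Igfbp7* at 804.6, *Igfbp2* at 802.1, *Igfbp6* at 594.0, *Igf2* at 263.8, *Igf2r* at 75.2, *Igf1r* at 44.0, *Igfbp3* at 33.0, *Igfbp4* at 24.7 and *Igf1* at 5.62. There the libraries of *Igfbp7*, *Igfbp2* and *Igfbp6* overlapped, as did those of *Igfbp3* with *Igf1r* and with *Igfbp4*, whereas *Igfbp5*, *Igf2*, *Igf2r* and *Igf1* were apart from their neighbours. Within each GM library, *Igfbp3* was above both receptors, and *Igf2* lay between *Igf2r* and *Igfbp4*. Within each 3d DM library, *Igfbp6* was below *Igfbp7* and *Igfbp2*, and *Igfbp3* lay between *Igf1r* and *Igfbp4*. The other overlapping pairs changed order between the libraries of a state. *Igf2* moved from position 8 to position 5, and *Igfbp2* from 1 to 3.

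The makeup of the binding protein RNA was also described as a sum of normalized values over the 6 genes, not divided by length. The sum was 59214 and 16985 in GM against 15733 and 16055 in 3d DM. Only GM replicate 1 stood apart, and most of its excess was *Igfbp5*. *Igfbp2* made up 17.3% and 45.1% of the sum in GM against 6.79% and 11.8% in 3d DM. *Igfbp5* made up 78.8% and 45.3% in GM against 83.5% and 74.8% in 3d DM. The share of *Igfbp2* was thus lower in both 3d DM libraries than in either GM library, whereas the share of *Igfbp5* overlapped. With 2 libraries against 2 the exact permutation test cannot give a p under 0.33, and none is given for these shares.

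A wider list of 28 pathway genes held other receptors, binding protein proteases and their inhibitors, RNA-binding proteins, signalling adaptors and *H19*. Of these, 16 were tested, 1 was called higher in 3d DM, 1 higher in GM and 14 were not called, and their median log2 fold change was -0.02, beside -0.22 for all tested genes. The called share is near that of all tested genes, 17% in either direction, and is not a result about the list. *H19*, the imprinted noncoding RNA expressed from the allele opposite to that of *Igf2*, was at 19860 and 7622 in GM against 49923 and 71139 in 3d DM. It did not overlap between states, and its log2 fold change was 2.28 (SE 0.40, limma, adjusted p = 3.19e-07). The log2 fold change was 2.53 without 3d DM replicate 1 and 2.02 without 3d DM replicate 2. The call was lost in both of these fits and without the filter, and adjusted p in limma ran up to 1. In these fits the gene's own replicates enter the standard error. They also enter it with the median-of-ratios and trimmed-mean rescalings, where *H19* was called (limma, adjusted p = 0.0129 and 0.0131). *Htra1*, a secreted serine protease that cuts IGF binding proteins, was at 1314 and 1037 in GM against 416.2 and 521.6 in 3d DM. Its log2 fold change was -1.32 (SE 0.43, limma, adjusted p = 0.0173). It was called in 6 of 12 alternatives and lost without any 1 of the libraries, with adjusted p of 0.429 and 0.25 without GM replicates 1 and 2 and of 0.152 and 0.0682 without 3d DM replicates 1 and 2. With a block for the replicate number its adjusted p was 0.128.

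Among those not called, the log2 fold changes ran from -1.02 for *Igf2bp2*, an RNA-binding protein that binds *Igf2* mRNA, to 1.33 for *Ccn3*, and the lowest adjusted p in limma was 0.105. *Ccn3* was at 21.1 and 10.0 in GM against 28.7 and 51.3 in 3d DM. It entered the test through its 3d DM values alone and therefore had to be higher there. *Igf2bp2* was at 782.3 and 491.7 in GM against 274.0 and 338.8 in 3d DM. *Irs1*, the adaptor that couples IGF1R to phosphoinositide 3-kinase, was at 1612 and 1695 in GM against 743.2 and 1116 in 3d DM (limma, adjusted p = 0.171). Neither overlapped between states. The insulin receptor gene *Insr* had overlapping values, 395.4 and 249.9 in GM against 333.2 and 484.8 in 3d DM. *Lrp1*, an endocytic receptor named because its undivided mean value is high, was at 5972 and 6448 in GM against 6030 and 6696 in 3d DM, with a log2 fold change of 0.03.

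The other 12 were below the filter. *Stc1*, which encodes an inhibitor of the PAPP-A proteases, was at 88.9 and 12.1 in GM against 2.62 and 3.68 in 3d DM. *Pappa2*, a protease for binding proteins, was at 4.19 and 4.01 in GM against 24.0 and 24.1 in 3d DM. *Insrr*, *Igfbp1* and *Igfbpl1* were listed at about 0 in every library.

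For each ligand, the 3 tested genes nearest in pattern were found by the Euclidean distance between centred log2(value + 1) values over the 4 libraries. For *Igf2* these were *Depp1* (distance 0.148), *Myl6b* (0.252) and *Tmem184a* (0.309). *Myl6b*, a myosin light chain gene, was at 347.3 and 126.5 in GM against 2457 and 4414 in 3d DM. For *Igf1* they were *Igdcc4* (0.292), *Cbfa2t3* (0.294) and *Gm14635* (0.298), and *Igdcc4* was at 25.5 and 4.03 in GM against 230.4 and 283.3 in 3d DM. All 6 shared the lower GM replicate 2. A distance over 4 libraries is a description of these libraries only.

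The m6A peaks were taken from 4 lists, 1 for each IP library against its input. A peak line gives a fold, the ratio of IP over input, and the authors' p-value, and it repeats for each transcript, so overlapping lines were merged into regions and numbered along each transcript. The 10 members had 69 lines and 21 regions, of which 7 were in all 4 lists. Members with a peak in every list were *Igf1r*, *Igf2r*, *Igfbp5* and *Igfbp7*, 4 of 10, where 42.6% of the tested genes with a symbol had one. Those with a peak in at least 1 list were 8 of 10, against 76.2%. *Igfbp3* was the 1 member with a peak in both GM lists and in no 3d DM list, a pattern of 2.67% of genes. *Igfbp2* and *Igfbp4* had no listed peak. The share of genes with a peak in all 4 lists grew with the mean normalized value, from 11.1% of 2267 genes under 100 to 46.8% of 7326 between 100 and 1000 and 67.5% of 1476 between 1000 and 5000, and was 62.5% of 184 genes above that. *Igf1* and *Igfbp4* fall in the lowest of these classes, and *Igfbp2* and *Igfbp5* in the highest.

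**Figure D3:**
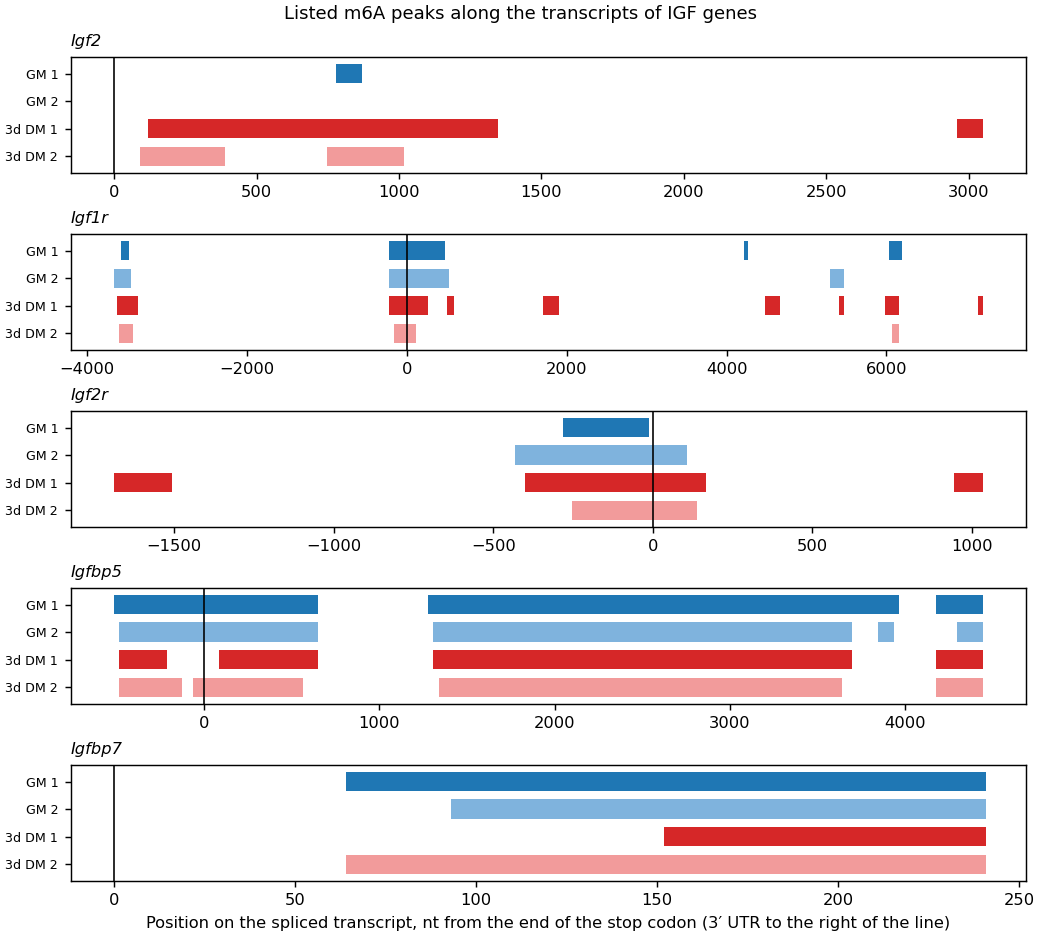
Listed m6A peaks of each library along 1 spliced transcript of *Igf2*, *Igf1r*, *Igf2r*, *Igfbp5* and *Igfbp7*, in nucleotides from the end of the stop codon (vertical line), with the 3′ UTR to the right and 1 row for each library. Peaks across the stop codon of *Igf1r* and in the 3′ UTR of *Igfbp5* recur in all 4 libraries, the *Igf2r* peak of GM replicate 1 ends before the stop codon that the other 3 libraries' peaks cross, and *Igf2* has no peak in GM replicate 2.

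On the *Igf2* transcript the main region (region 1, chr7:142652436-142653728, minus strand) lay in the 3′ UTR, from 90 to 1346 nt past the stop codon. Its highest fold was 4.96 in the first GM library and, for 3d DM, 6.98 in the first and 4.28 in the second, while GM replicate 2 had no peak. The GM stretch was 121 nt at most, with an exomePeak p-value of 0.00331. The line with the highest fold in the first 3d DM library covered 1226 nt, and its p-value from exomePeak was 2.51e-74. GM replicate 2 is also the library with the lowest *Igf2* value, 60.2. The part of the RNA level in this difference was not tested. A second *Igf2* region, close to the transcript's end, was listed in 3d DM replicate 1 only, at a fold of 1.94. The single *Igf1* peak, in the 3′ UTR, was listed in 3d DM replicate 1 only, at a fold of 4.59.

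*Igf1r* had the most regions of any member, 8, with 4 and 3 of them in the GM lists and 7 and 3 in the 3d DM lists, replicate 1 first. Region 2, from position -219 to position 590 counted from the end of the stop codon (chr7:68226182-68226991, plus strand), had folds of 7.06 and 7.30 in GM against 7.12 and 6.82 in 3d DM. The states overlapped, with a log2 difference of -0.04 (two-sided exact permutation p = 0.667). Region 1, inside the coding sequence and across an exon junction, was at 3.17 and 3.42 in GM against 3.11 and 3.46 in 3d DM, also overlapping (log2 difference -0.01, exact permutation p = 1). The values of the stop codon region were thus close in all 4 libraries. Region 7, far down the 3′ UTR, was listed in all libraries but GM replicate 2, at 4.52, 3.93 and 3.03. The other 5 were each in 1 list or, for region 6, in 1 of each state, and 3 of these 5 were in 3d DM replicate 1 alone.

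*Igf2r* region 2, the merged peaks of all lists, ran from position -431 to position 167 counted from the end of the stop codon (chr17:12683543-12685152, minus strand). The peak of GM replicate 1, from -282 to -12, lay wholly in the coding sequence, whereas those of the other 3 libraries crossed the stop codon, so the folds cover different stretches. It had folds of 6.56 and 5.13 in GM against 4.33 and 4.34 in 3d DM. This was the 1 region of the 7 whose states did not overlap, with both 3d DM folds below both GM folds, which was so for 21.8% of the 6053 regions of all genes found in all 4 lists. Both 3d DM folds lay above both GM folds for 9.14% of those regions and for none of the 7. The log2 difference at *Igf2r* was -0.42, a ratio of 0.747, beside a median of -0.11 over all 6053, and its exact permutation p of 0.33 is the smallest that 2 libraries against 2 allow. The RNA values of *Igf2r* had the opposite order, with 3d DM above GM, short of the threshold.

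*Igfbp5* had 3 regions, each in all 4 lists. Region 2 covered 2690 nt of the 3′ UTR in GM replicate 1 and 2301 nt in 3d DM replicate 2, with folds of 6.64 and 6.45 in GM against 6.57 and 6.04 in 3d DM. The folds were close in all 4 libraries, although the *Igfbp5* value in GM replicate 1 was far above that in GM replicate 2. Region 1, around the stop codon, was at 5.23 and 3.02 in GM against 3.84 and 4.52 in 3d DM, and region 3, at the 3′ end, at 3.27 and 1.73 against 2.49 and 4.29. The folds of region 1 cover different stretches. In GM each is that of a single peak from the coding sequence across the stop codon, 1166 and 1136 nt long. In 3d DM the list breaks the region into separate peaks, of which the highest is 569 nt long and lies past the stop codon in replicate 1, and is 628 nt long and crosses it in replicate 2. The coding peaks had folds of 1.40 and 1.86. Regions 1 and 3 overlapped between states (exact permutation p = 1 and 0.667), and the replicates of GM differed more than the states did. Regions 1 and 2 changed the sign of their small difference with the choice of line, to -0.46 and 0.33.

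The single *Igfbp7* region ran to the annotated 3′ end, from 64 to 240 nt past the stop codon on the transcript drawn in the peak map. Its folds were 3.30 and 3.46 in GM against 1.87 and 4.11 in 3d DM. The 3d DM replicates enclosed the GM values, and no difference between states was detectable (exact permutation p = 1). *Igfbp3* had a region in GM replicate 1 at a fold of 7.0 and another in GM replicate 2 at 2.78. These regions did not overlap each other, so no *Igfbp3* region was listed in more than 1 library. *Igfbp6* had a region across its stop codon in 3d DM replicate 2 only, at a fold of 2.47.

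**Figure D4:**
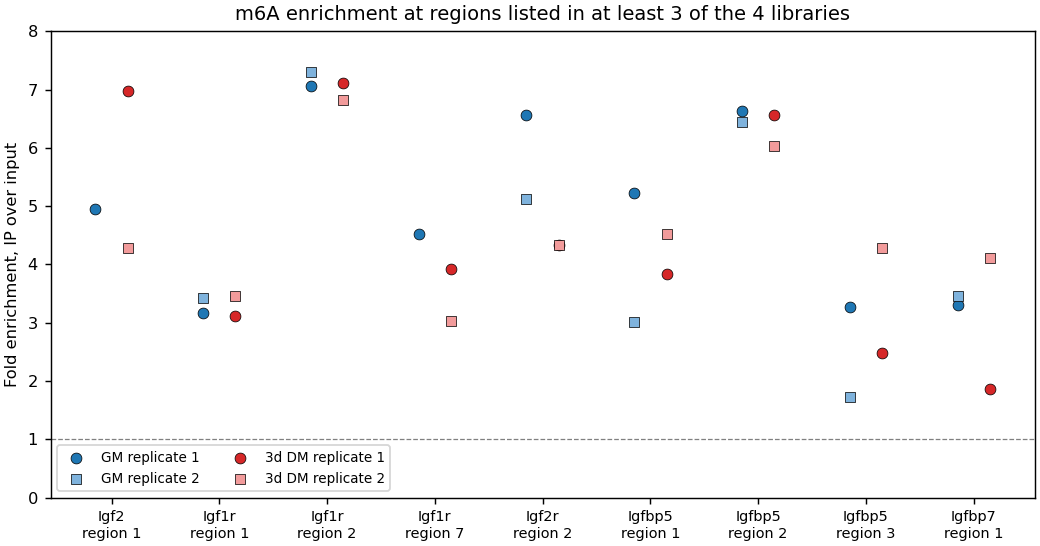
Fold enrichment, IP over input, of the 9 regions listed in at least 3 of the 4 libraries, for GM (blue) and 3d DM (red), with circles for replicate 1, squares for replicate 2 and a dashed line at 1, no enrichment. Where a library has no point, the region was not in its list. *Igf1r* region 2 and *Igfbp5* region 2 hold narrow ranges, 6.82 to 7.30 and 6.04 to 6.64. Of the regions with a point in every library, *Igf2r* region 2 is the one with both 3d DM folds below both GM folds. *Igf1r* region 7, without a point for GM replicate 2, also has both 3d DM folds below its GM fold.

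The bases shared by the lists of each region were read on the transcript strand for the 5 motifs shown with the sequences above. All regions found in 4 lists and scanned, 5756, held 7.93 matches per kb, beside 4.45 per kb for the reverse complements of the same motifs. *Igfbp5* region 2 held 24 matches in 2301 nt, and 100% of 39 regions of like length held at least 1. *Igfbp5* region 1 had 6 matches in 748 nt (99.1% of 556 like regions held one). The stop codon region of *Igf1r* had 2 matches in 271 nt (89.1% of 1182), and the match printed for it has its A 8 nt past the stop codon. *Igf2r* region 2 had 1 match in the 241 nt shared by its lists (86.0% of 1180). These bases lie in the coding sequence and end before the stop codon, so the part across it was not scanned. The match lay 75 nt before the end of the stop codon. The same bases held 6 reverse complements, the opposite order to that over all regions. *Igf1r* region 1 had 2 in 91 nt (55.4% of 350) and *Igfbp7* 1 in 89 nt (55.6% of 347). No match was found in the 124 nt shared by the lists of *Igf2* region 1, where 63.8% of 730 like regions held one, nor in *Igfbp5* region 3 or *Igf1r* region 7, which says only that these letters are not in those bases.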

How the data were processed

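The authors trimmed adaptors and aligned reads to mm10 with HISAT2 2.1.0. They called peaks with exomePeak in each sample at a p-value of up to 0.05, and each deposited list holds for every line a fold, the ratio of IP over input, and a p-value. The expression table deposited by the authors holds a normalized signal for each gene, made with edgeR and named for its trimmed-mean scaling. The counting tool, its annotation and its use of strand are not given in the sources used here. Values are not whole reads, so no count test was run. Pairs of low values recurred within a state in 47.4% (GM) and 55% (3d DM) of 2171 low genes and in at most 0.461% across states, so a library's low values may depend on its replicate. Depth is unknown, and no counting error is given.

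Symbols were matched by Entrez number for 93.0% of the table and 98.7% of tested genes. A gene was tested if it reached 2 cpm, taken from its column's total, in 2 or more libraries. Tests used limma 3.58.1 in R 4.3.3 with its intensity trend, on log2(value + 1), and p-values were adjusted by the method of Benjamini and Hochberg. On simulated data for this comparison, with 11406 genes, 199 of 200 planted 4-fold changes and 7 unchanged genes were called. The simulated noise was independent and of the same size for every gene. Real replicates could lie far apart, as for *Igfbp5* in GM (46663 and 7702). The share of real changes found is therefore not known from the simulation. Peak lines sharing at least 1 base on a strand were merged, a library's fold in a region was that of its highest line, and positions came from GENCODE M21 (Python 3.11.15, pandas 2.3.3, pyfaidx 0.9.0.4). Start coordinates were raised by 1. Coordinates of genes are those of RefSeq, on GRCm38. The text names all members, the wider list's called and most abundant genes and others of it chosen after their values were seen, 5 state markers, cell type markers, and the 3 genes nearest to each ligand. Members and lists were chosen with earlier results of these data known. Alternatives were other filters, pseudocounts, scalings and peak limits, each library left out, and a block for the replicate number.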

Additional observations from a re-analysis of the deposited data

How the results depend on the processing

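Members called higher in 3d DM were 2, 1 with the filter in 3 libraries (*Igf1* was then not tested), 0 with no filter, 4 with either rescaling, and 1 to 2 without 1 library. Those called higher in GM were 1, 0 with no filter, and 0 to 2 without 1 library. Calls in the wider list, 2, became 0 with no filter, 1 with the replicate block, and 0 to 2 without 1 library. Calls over all genes were 1936, 154 with no filter, where 27179 genes shared the adjustment, and 145 to 1252 without 1 library. With no filter the gene's own replicates also entered the standard error, unlike in the main fit. The part of this change and of the number of genes in the drop to 154 was not tested. Some settings gave more calls. Without the intensity trend, 3 members were called higher in 3d DM and the wider list had 3 calls. The wider list also had 3 calls after the trimmed-mean rescaling. With the median-of-ratios and trimmed-mean rescalings the calls over all genes were 2644 and 2646. Of these, 1369 and 1360 were higher in 3d DM against 800 before, so calls rose over all genes as they did among the members. Of all calls 41.3% were higher in 3d DM, 51.8% with median-of-ratios and 51.4% with trimmed-mean rescaling.

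Replicate numbers are only shared numbers in the labels, with 2 pairs, and same-numbered deviations correlated at 0.29 over genes. The replicate block gave 1298 calls over all genes, 2 members higher in 3d DM and 1 in GM, and lost *Htra1* (adjusted p = 0.128).

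Members with a peak in every list were 4, 2 at p of at most 1e-05, and 4 to 5 without 1 library. Regions numbered 21, 10 at p of at most 1e-05, 12 at a fold of at least 4, and 15 to 21 without 1 library. *Igfbp5* RNA ran from -1.89 to 0.70 without 1 library. Log2 differences of peak folds without 1 library ran from -0.082 to 0.072 (*Igf1r* region 1), -0.33 to 0.46, -0.12 to 0.0057 and -0.00073 to 0.92 (*Igfbp5* regions 1, 2 and 3), and -0.85 to 0.28 (*Igfbp7*). With the median line of a library, *Igfbp5* regions 1 and 2 were at -0.46 and 0.33. The cause of these changes was not tested. With no read numbers, what depth limits cannot be given.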

Other observations

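The genes next to *Igf2* on distal chromosome 7 were read in the same libraries. *Ins2* (chromosome 7, 142678656 to 142679726), an insulin gene, was at 0 and 1.00 in GM replicates 1 and 2 and at 22.6 and 20.4 in 3d DM replicates 1 and 2, under the value of 25.1 needed for the test. The microRNA genes *Mir483* and *Mir675*, inside *Igf2* and *H19*, were at about 0 in every library. The libraries were made from poly(A) RNA, and how reads inside a host gene were assigned is not given. These values are therefore not read as absence of the microRNAs. *Ins2* was thus higher in both 3d DM libraries, as were *Igf2*, *Igf2os* and *H19*, with no test for *Ins2* and *Igf2os*, both below the filter. Both 3d DM values lay above both GM values for 16.8% of all tested genes, and a shared change of these neighbours was not tested. *Igf2os* overlaps *Igf2*, and the use of strand in counting is not stated. The *Igf2os* values are therefore not read as separate from those of *Igf2*. The adaptor genes *Grb10* and *Grb14* also lay below the filter, at 0 and 1.00 in GM against 5.41 and 10.5 in 3d DM for *Grb10*, and at 35.8 and 22.1 against 10.2 and 11.7 for *Grb14*. *Ccn2*, a matricellular protein gene, was at 85.6 and 1361 in GM against 375.5 and 1042 in 3d DM, where the second replicate of each state was the higher one.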
